A study of Mus musculus with 6 samples.

Results

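Mitochondrial ribosomal protein genes were followed in endothelial cells of mouse lung, after a normal diet (ND) or after a high-fat one (HFD). The genes were taken by symbol, as every row whose name starts with Mrpl or Mrps and a digit, and this set was chosen with earlier results of these data known. A single pseudogene entry, Mrpl23-ps1, was left out. This gave 78 genes of the 23345 in the table, 49 named for the large and 29 for the small subunit. All mice were of the strain C57BL/6JOlaHsd, and their diet lasted 12 weeks by the design text, or 3 months by the sample labels. The labels do not give the sex or age of the mice or the composition of the diets. Lung cells were attached to coated plates, depleted of CD16/CD32-bearing cells, enriched with beads against the endothelial surface protein ICAM-2 and plated on collagen I, so the RNA is of plated and not of freshly isolated cells. Each diet had 3 libraries, each of 500 cells from a separately numbered mouse (ND 1, 3 and 4, HFD 2, 4 and 5).

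Mitochondria keep their own ribosome, which translates the few messages of mitochondrial DNA into core subunits of the respiratory chain and of ATP synthase. Its RNAs come from mitochondrial DNA, but all of its proteins are encoded in the nucleus, made in the cytosol and imported. Many have bacterial counterparts, and others were added in the mitochondrial lineage. The small subunit reads the message, and the large subunit forms the peptide bond and lies against the inner membrane, into which the products are inserted. The symbols do not follow the structure throughout. Mrps30 and Mrps18a encode proteins of the large subunit, and Mrps36 encodes a component of the 2-oxoglutarate dehydrogenase complex. Counts by subunit below go by symbol unless they are said to go by structure.

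The values, here called normalized counts, are reads per gene after the authors scaled each library by its size factor. Depth, recovered from these values, was 13752860 to 17194899 reads per library in ND and 18808208 to 27896648 in HFD, so every HFD library was the deeper. All 10 endothelial markers on the list (such as Pecam1, Cdh5 and Kdr) had reads in every library, with summed levels of 114349 to 141835 normalized counts in ND and 142725 to 163124 in HFD. Lung epithelial markers summed to 102514 in ND 3, against 3614 to 18440 in the other 5 libraries. In ND 3 the leukocyte markers present in the table, 7 of 10 listed, also summed to 6587, against 171 to 234 elsewhere. A list of 9 stress and nuclear RNAs (such as Fos, Hspa1a and Malat1) summed to 280011 to 431729 in ND and 393491 to 429259 in HFD. Mural and fibroblast markers ran from 143 to 8214 in ND and from 457 to 2195 in HFD, and lymphatic markers from 14841 to 33512 and from 4853 to 15891. The part of these other cells in the values below was not tested. In bulk RNA of this kind, fewer cells of a type and less RNA per cell cannot be told apart.

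The promoter windows of 4 genes are shown first, because these are the members with the smallest p in each direction between the diets, Mrps27 and Mrpl37 with higher and Mrps23 and Mrpl52 with lower means in HFD. Each window runs from 250 bases before the start of transcription to 50 after it, from RefSeq on GRCm38.p6, written 5′ to 3′ on the strand of the gene. Capitals mark letters that match a binding motif of the ETS family, to which the mitochondrial regulator GABP belongs (CCGGAAGT), or of YY1 (AAGATGGCG), on either strand. The windows are at chr13:99344536-99344835 on the plus strand (Mrps27), chr4:107066817-107067116 on the minus strand (Mrpl37), chr11:88204138-88204437 on the plus strand (Mrps23) and chr14:54426659-54426958 on the plus strand (Mrpl52).
Mrps27: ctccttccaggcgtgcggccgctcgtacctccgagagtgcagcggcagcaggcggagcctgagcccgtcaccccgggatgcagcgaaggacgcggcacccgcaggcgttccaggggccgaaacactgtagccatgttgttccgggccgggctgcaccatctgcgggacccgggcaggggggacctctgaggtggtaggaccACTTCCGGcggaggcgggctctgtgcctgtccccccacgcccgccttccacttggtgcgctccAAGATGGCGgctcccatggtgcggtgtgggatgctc
Mrpl37: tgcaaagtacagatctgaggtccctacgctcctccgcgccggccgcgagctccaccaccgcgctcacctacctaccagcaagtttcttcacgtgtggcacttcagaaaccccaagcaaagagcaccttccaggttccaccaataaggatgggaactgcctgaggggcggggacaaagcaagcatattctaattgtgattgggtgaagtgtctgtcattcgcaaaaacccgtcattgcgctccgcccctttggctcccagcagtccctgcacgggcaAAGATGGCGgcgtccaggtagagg
Mrps23: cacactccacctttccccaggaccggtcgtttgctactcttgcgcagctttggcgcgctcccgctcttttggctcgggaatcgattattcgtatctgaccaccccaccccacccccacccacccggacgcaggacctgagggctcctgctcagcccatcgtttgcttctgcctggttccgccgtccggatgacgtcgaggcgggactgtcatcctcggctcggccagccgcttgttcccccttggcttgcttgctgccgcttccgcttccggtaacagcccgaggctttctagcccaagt
Mrpl52: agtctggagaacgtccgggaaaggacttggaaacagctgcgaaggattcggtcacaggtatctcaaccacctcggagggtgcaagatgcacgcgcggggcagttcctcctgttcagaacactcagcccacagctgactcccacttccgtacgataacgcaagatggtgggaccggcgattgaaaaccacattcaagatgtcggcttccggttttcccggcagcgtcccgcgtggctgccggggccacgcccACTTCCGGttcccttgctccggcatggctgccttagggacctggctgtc
The Mrps27 window holds an ETS match 49 bases before the start and a YY1 match at base 15 of the transcript. The Mrpl37 window holds the YY1 letters at base 27 of the transcript. The Mrpl52 window holds an ETS match at base 2 of the transcript, and none of the motifs searched was in the Mrps23 window.

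The question the design asks of these genes is whether their transcripts differed between the diets. Their summed levels overlapped between the diets, and no member passed the test with limma. In ND 1, ND 3 and ND 4 the 78 genes summed to 162273, 97346 and 106629 normalized counts. In HFD 2, HFD 4 and HFD 5 they summed to 125417, 115981 and 115270. The mean was 122082 ± 35114 in ND and 118889 ± 5664 in HFD (SD, n = 3), so the ND values enclosed those of HFD, and the spread of the ND mice was far wider than the gap between the means. As a share of all normalized counts of a library, the genes made up 0.799%, 0.628% and 0.653% in ND and 0.687%, 0.649% and 0.574% in HFD, again overlapping.

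**Figure D1:**
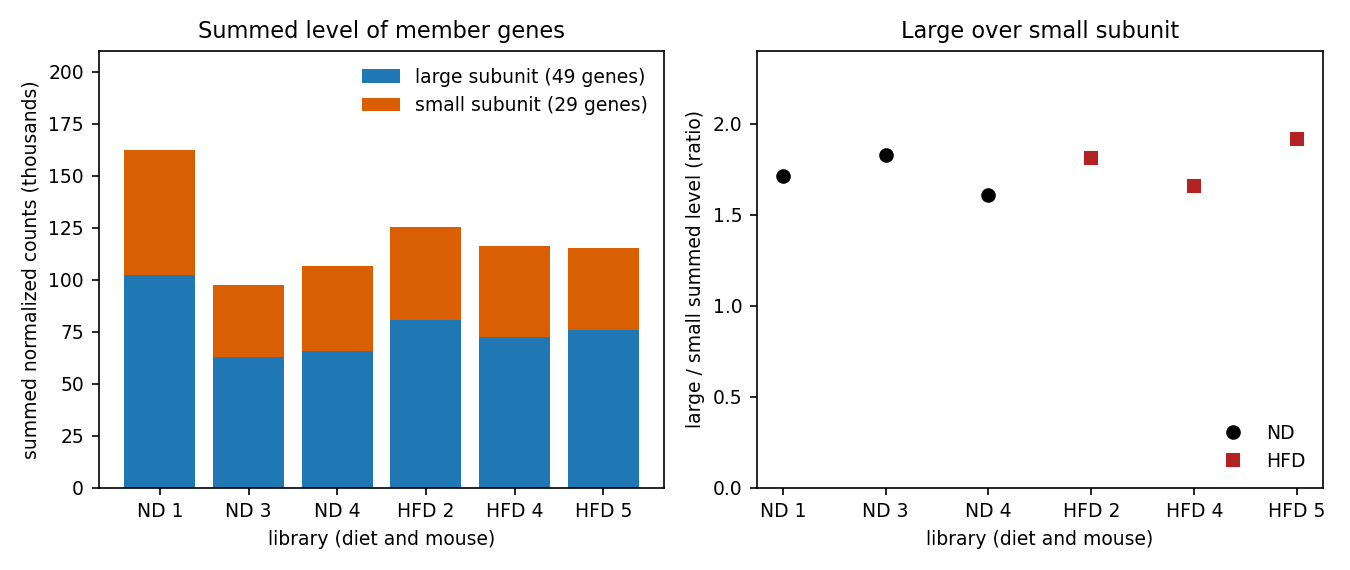
Left, summed normalized counts (in units of 1000) of the large (blue) and small (orange) subunit genes in each library. Right, the ratio of the large to the small subunit sum in ND (circles) and HFD (squares). ND 1 stands highest at 162273 in all, and the ratios of the diets overlap, from 1.61 to 1.83 in ND and from 1.66 to 1.92 in HFD.

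Library ND 1 stood apart from the other ND libraries for these genes. It held the highest value of 41 of the 78 members (52.6%), whereas it held the highest value of 28.1% of the tested genes whose mean lay between 500 and 5000 normalized counts, the range of 65 of the members. Its member sum was 1.59 times the mean of the other 2 ND libraries, against 1.28 times for its total of all genes. HFD 5, which held the highest value of 28.7% of the genes in that range, held that of 12 members (15.4%). ND 3 and ND 4 held the lowest value of 20 and 21 members.

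The diets were compared by limma on log2(normalized count + 1), over the 15655 genes whose mean reached 10, with Benjamini-Hochberg adjustment over all of them. All 78 members passed this filter on low values, and fold changes are on that scale. With limma 0 of 78 members passed an adjusted p of 0.05, as did 0 of all genes tested (0%), and the smallest adjusted p of a member was 0.486. At an unadjusted p under 0.05 limma gave 2 members, Mrps27 and Mrpl37, both higher in HFD, where 7.92% of all genes tested passed, 5.56% higher and 2.36% lower. The quasi-likelihood test of edgeR on the recovered reads also called 0 members and 0 genes (0%), with 1462 genes (9.34%) at an unadjusted p under 0.05. DESeq2 on the same reads called 1 member, Mrps27 (adjusted p = 0.0210), among 272 genes (1.95%), with 169 higher in HFD (1.21%) and 103 higher in ND (0.739%).

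The median log2 fold change of the members, HFD minus ND, was 0.03, beside 0.05 over all genes tested. Of the 78 members 41 had the higher mean log2 level in HFD and 37 in ND, near the 52.8% of all genes tested that were higher in HFD. Among tested genes with a mean of 500 to 5000, the range of 65 members, 59.8% were higher in HFD, with a median of 0.13. The members stood below both of these values. The quartiles of the members' fold changes were −0.22 and 0.27, and 3 members differed by more than 1 log2 unit, Mrps27, Mrpl37 and Mrps22, where 30.9% of all genes tested did. That share is of genes at all levels, and among tested genes with a mean of 500 to 5000 it was 10.9%. The sign of the members' median was not stable. It was −0.08 under scaling to equal totals, −0.11 under quantile normalization and −0.04 with DESeq2. It was 0.21 without ND 1, −0.10 without ND 3, −0.09 without ND 4 and 0.01 without HFD 4. The 95% interval of the fold change lay within a 2-fold difference either way for 22 members, and for the other 56 it reached past a 2-fold difference in some direction at this depth and number of mice. The median standard error of a member was 0.37 log2 units, against 0.75 over all genes tested and 0.41 over those with a mean of 500 to 5000.

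**Figure D2:**
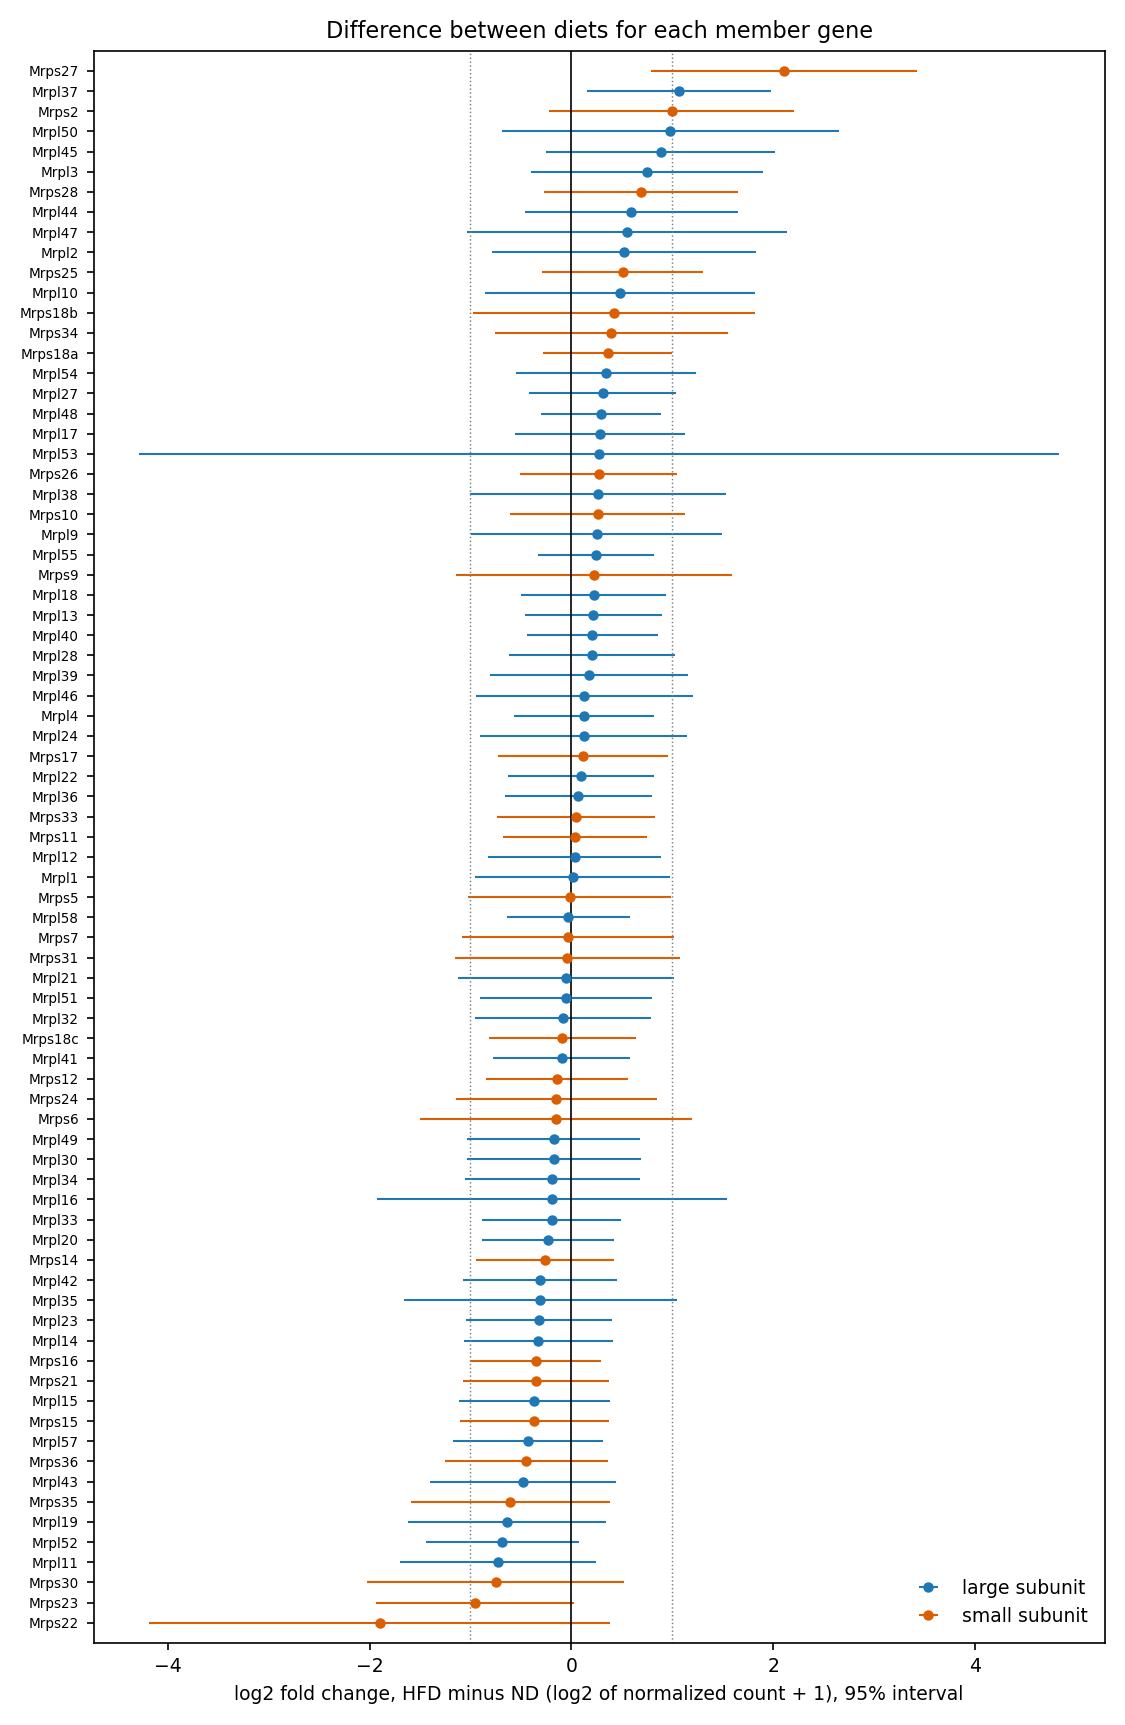
Log2 fold change, HFD minus ND, of each of the 78 genes with its 95% interval from limma (blue, large subunit, orange, small subunit, by symbol), with dotted lines at −1 and 1. The intervals of 2 genes, Mrps27 and Mrpl37, leave out 0, and the widest is that of Mrpl53, from −4.28 to 4.83.

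**Figure D3:**
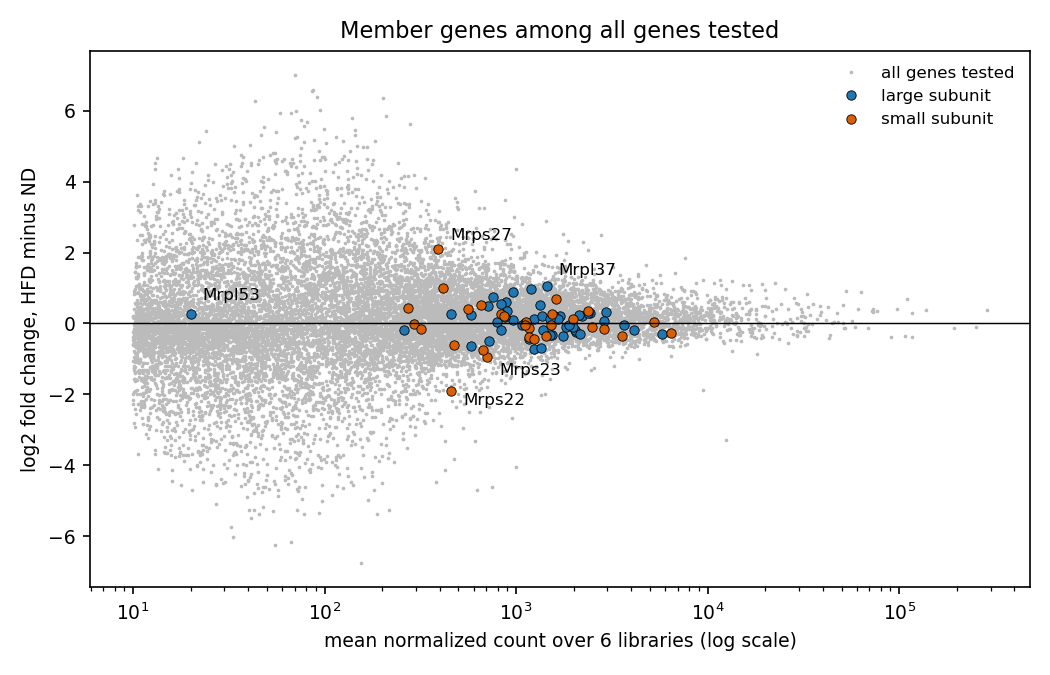
Log2 fold change, HFD minus ND, against the mean normalized count over 6 libraries (log scale) for all 15655 genes tested (grey) and the members (coloured by subunit). Members other than Mrpl53 have means from 260.5 to 6427 and cluster around 0.

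The large and small subunits were set side by side in each library. The ratio of the large to the small subunit sum was 1.71, 1.83 and 1.61 in ND 1, ND 3 and ND 4, against 1.81, 1.66 and 1.92 in HFD 2, HFD 4 and HFD 5. The means were 1.72 ± 0.11 in ND and 1.79 ± 0.13 in HFD (SD, n = 3), a gap smaller than the spread within either diet. Sorted by structure, with 51 large and 26 small subunit genes, the ratio was 1.97 ± 0.14 and 2.07 ± 0.18. The median log2 fold change was 0.10 over the large and −0.03 over the small subunit genes, with 28 of 49 and 13 of 29 higher in HFD. Under scaling to equal library totals both medians were below 0, at −0.02 and −0.15, and without ND 4 their order turned, at −0.09 and −0.07. The difference between the medians, 0.13 log2 units, was 0.20 without HFD 4. No test of the subunits as groups was made.

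Within the large subunit, the 30 proteins with a bacterial counterpart had a median log2 fold change of 0.05, and the 21 that arose in mitochondria (by structure) one of 0.18. In the small subunit the 16 conserved proteins had a median of −0.06 and the 10 mitochondria-specific ones 0.16. The latter 10 held all 4 members whose libraries did not overlap between the diets, where 14.1% of all genes tested had no overlap. The fold changes of these 10 ran from −1.90 for Mrps22 to 2.11 for Mrps27. Of 8 proteins of the exit tunnel rim and membrane anchor 7 had higher mean log2 levels in HFD, with a median of 0.23. So did 7 of 8 proteins of the central protuberance, also with a median of 0.23. Of all genes tested 52.8% were higher, and of those with a mean of 500 to 5000 it was 59.8%. Without ND 4 the counts for these proteins were 5 and 5 of 8, with medians of 0.11 and 0.06. Under equal totals the median of the conserved large subunit proteins was −0.06, and without ND 4 that of the mitochondria-specific ones was −0.10, so neither sign held. Without ND 1 the conserved small subunit proteins had a median of 0.14, and the mitochondria-specific ones of that subunit had one of 0.01 without ND 4 and 0.28 without HFD 2. None of these genes passed limma.

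Among the 78 members, 4 had libraries without overlap between the diets, Mrps25 and Mrps27 higher and Mrps23 and Mrps35 lower in HFD. This is a smaller share than over all genes tested, of which 14.1% had no overlap, 8.12% higher and 5.93% lower. These counts moved with the libraries. Without ND 1, 22 members were higher without overlap, where 15.5% of all genes tested were, and 3 were lower (11.8%). The counts higher and lower were 5 and 9 without ND 3, 3 and 3 without ND 4, 9 and 7 without HFD 2, 5 and 4 without HFD 4, and 3 and 8 without HFD 5, beside 11.1% to 14.4% and 9.85% to 11.7% of all genes tested. Leaving out a library can only raise such counts, since fewer values have to separate.

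Mrps27 encodes a pentatricopeptide repeat protein of the small subunit. In ND 1, ND 3 and ND 4 it stood at 98.0, 143 and 178 normalized counts, and in HFD 2, HFD 4 and HFD 5 at 857, 308 and 775. Each HFD value lay above each ND value, with HFD 4 the nearest to ND. The means were 139.8 ± 40.2 and 647 ± 296 (SD, n = 3), which gave a log2 fold change of 2.11 ± 0.56 (SE) with a 95% interval of 0.79 to 3.43. It passed neither limma (adjusted p = 0.486) nor edgeR over all genes (adjusted p = 0.508), and it passed DESeq2 as given above. The fold change was 1.84 to 2.58 as each library was left out. Mrps27 lies on chromosome 13 of GRCm38 from 99344786 to 99415562 (GENCODE M21), and 24.2% of its exonic bases are shared with a gene on the opposite strand, 6430562O15Rik.

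Mrpl37, a mitochondria-specific protein of the large subunit, stood at 1408, 707 and 752 normalized counts in the ND mice (1, 3 and 4) and at 1396, 2315 and 2141 in the HFD mice (2, 4 and 5). ND 1 and HFD 2 had nearly the same value, and HFD 4 and HFD 5 were above all others. The log2 fold change was 1.07 ± 0.39 (SE, limma adjusted p = 0.574). Mrps23, a mitochondria-specific protein of the small subunit, gave 861, 754 and 1155 in the ND mice and 510, 654 and 308 in the HFD mice. All HFD values were below all ND values, and the log2 fold change was −0.95 ± 0.42 (limma adjusted p = 0.638). Mrpl52, of the central protuberance of the large subunit, had 1988, 1283 and 1727 in ND and 1290, 961 and 858 in HFD, in the same order of mice. HFD 2 lay just above ND 3, and the log2 fold change was −0.68 ± 0.32 (limma adjusted p = 0.644).

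Mrps22, a mitochondria-specific protein of the small subunit, varied most between mice apart from Mrpl53. The ND mice (1, 3 and 4) gave 1231, 353 and 470 normalized counts and the HFD mice (2, 4 and 5) gave 35.9, 269 and 395. HFD 5 overlapped ND 3, and the highest library had 34.3 times the lowest. The log2 fold change of −1.90 ± 0.97 (limma adjusted p = 0.659) was −0.85 without HFD 2, whose value rests on 37 reads.

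Mrps2, the counterpart of bacterial ribosomal protein S2, gave 254, 162 and 438 normalized counts in the ND mice and 378, 552 and 691 in the HFD mice. ND 4 overlapped HFD 2, and the log2 fold change was 1.00 ± 0.52 (limma adjusted p = 0.660). Mrpl45, which holds the ribosome at the inner membrane near the tunnel exit, had 981, 708 and 379 in ND and 779, 1252 and 1701 in HFD. HFD 2 lay below ND 1, and the log2 fold change was 0.88 ± 0.48 (limma adjusted p = 0.681). Mrpl11, a protein of the stalk that contacts translation factors, had 1903, 984 and 1752 in ND and 1284, 627 and 906 in HFD. ND 3 lay among the HFD values, and the log2 fold change was −0.72 ± 0.41 (limma adjusted p = 0.695).

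The other members with small p did not separate the diets or did so by little. Mrps25, a small subunit protein, had 631, 572 and 438 in ND and 715, 788 and 812 in HFD. Its log2 fold change was 0.51 ± 0.34. However, 69.8% of its exonic bases are shared with Nr2c2 on the opposite strand. The strand setting of the counting is not given, so whether the shared bases add or lose reads in its values is not known. Mrps35, also of the small subunit, had 830, 525 and 400 in ND and 334, 398 and 372 in HFD, with HFD 4 at 398 next to ND 4 at 400. Mrps28, the counterpart of bacterial S1, had a log2 fold change of 0.69 ± 0.41. Mrpl3 and Mrpl19, both conserved large subunit proteins, had 0.75 ± 0.49 and −0.64 ± 0.42.

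**Figure D4:**
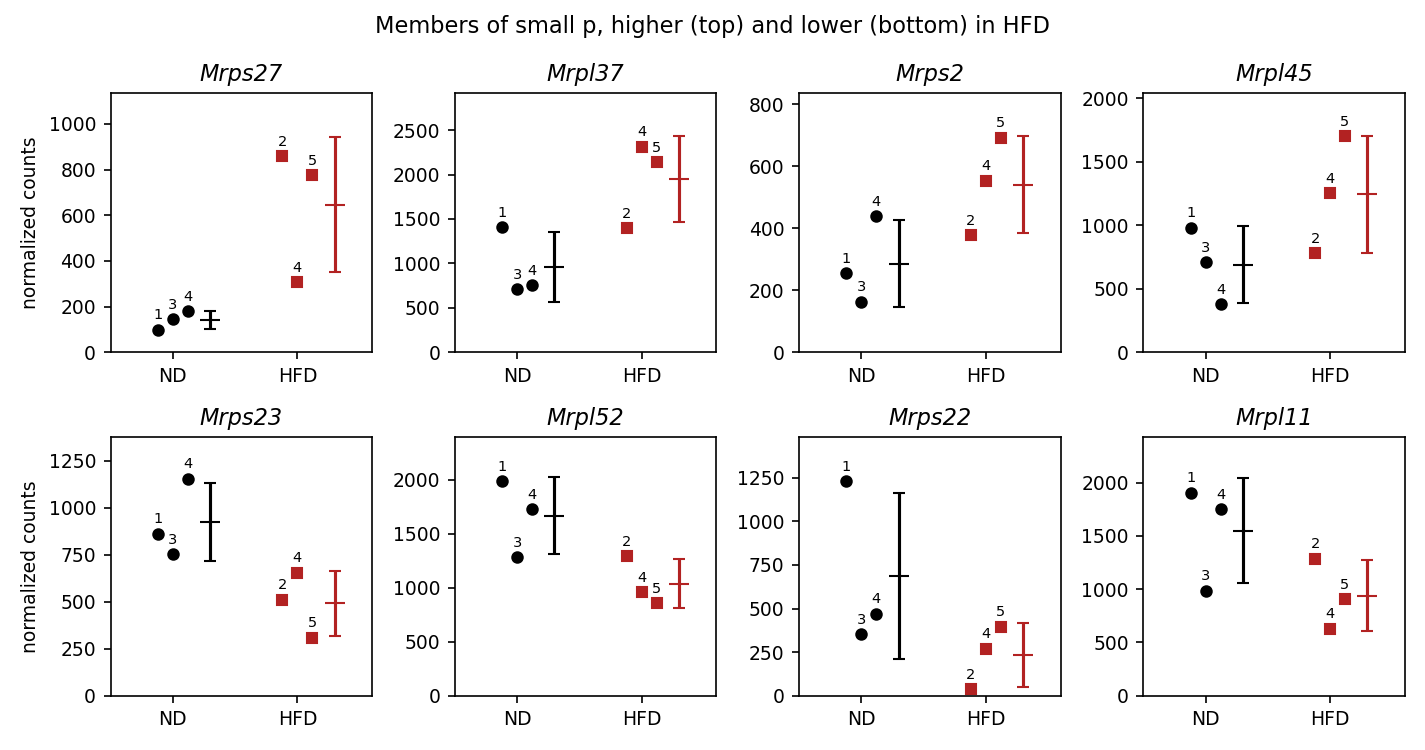
Normalized counts of 8 members in each library (points labelled by mouse number, ND black circles, HFD red squares), with the mean and SD of 3 mice at the right of each diet. Of these 8, Mrps27 and Mrps23 have no overlap between the diets, and all 8 missed the adjusted threshold in limma.

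Other members were named for their roles, whatever their values. Mrpl12, the stalk protein that recruits translation factors, averaged 783 ± 174 normalized counts on ND and 806 ± 207 on HFD (SD, n = 3). Mrpl10, its anchor in the stalk, had 633 ± 335 and 800 ± 259. Mrps12, of the decoding centre, had 1234 ± 267 and 1105 ± 49.6. Mrpl58, a peptidyl-tRNA hydrolase built into the large subunit, had 3716 ± 959 and 3587 ± 452. These 4 overlapped between the diets.

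The genes Mrps18a, Mrps18b and Mrps18c encode relatives of a single bacterial protein, S18. Mrps18a, of the large subunit, averaged 2086 ± 529 normalized counts on ND and 2633 ± 208 on HFD. Mrps18c had 2598 ± 843 and 2391 ± 414, and Mrps18b had 238 ± 138 and 307 ± 140. Mrps30, of the large subunit by structure, had 851 ± 461 and 497 ± 228, and Mrpl44, which carries a domain related to RNase III, had 707 ± 254 and 1054 ± 339. Mrps34 had 504 ± 275 and 614 ± 135, with 77.8% of its exonic bases shared with other genes. Mrps36, outside the ribosome, had 1425 ± 334 and 1053 ± 294. None of these 7 separated the diets.

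Levels differed widely between members. Per kilobase of the longest principal GENCODE M21 transcript, the highest large subunit genes were Mrpl42 at 8656, Mrpl33 at 8617 and Mrpl27 at 3903 mean normalized counts per kilobase. The highest small subunit genes were Mrps21 at 7351, Mrps33 at 4758 and Mrps18c at 3910. The lowest were Mrpl53 at 28.7, Mrpl19 at 116 and Mrpl3 at 190 in the large, and Mrps5 at 65.5, Mrps25 at 109 and Mrps35 at 114 in the small subunit. Of these lowest genes, exons of other genes cover 88.0% of the exonic bases of Mrpl53, 69.8% of Mrps25 and 36% of Mrpl19. For Mrpl3 the share is 3.72%, and for Mrps5 and Mrps35 it is 0%. The part of such overlap in the low values was not tested. The order depends on the transcript model. Per kilobase of merged exons, Mrps21, Mrps33 and Mrpl27 led, Mrpl42 was number 13 and Mrpl33 number 33 of 78, and Mrpl53 and Mrps5 remained at the end.

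Mrpl53, which sits near the stalk base of the large subunit, was the single member with 0 reads in some library. It had 0 in ND 1 and HFD 2, which allows up to 3.54 and 2.91 normalized counts, and stood at 18.2 and 29.7 in the other ND mice (3 and 4) and at 54.0 and 18.0 in the other HFD mice (4 and 5). The libraries with 0 include 1 of each diet, and the other 4 overlap. Such limits cover counting error only, because reads copied by PCR and carrying no molecular identifier are not independent. Other genes share 88.0% of its exonic bases, and its transcript is 100% identical over its whole length to one of the same-strand gene Gm42688. Gm42688 itself had 0 to 8.55 normalized counts in the 6 libraries, and the part of the shared bases in the values of Mrpl53 was not tested. All other members had at least 37 reads in every library.

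Spread between the libraries of a diet, each of a separate mouse, also set members apart. The pooled within-diet SD of log2 levels had a median of 0.45 over the members, 0.49 over tested genes with a mean of 500 to 5000 and 0.81 over all genes tested. The steadiest were Mrpl55 at 0.15, Mrpl40 at 0.17 and Mrps16 at 0.19. The most variable were Mrpl53 at 2.84, Mrps22 at 1.46, Mrpl50 at 1.07, Mrpl16 at 0.99 and Mrpl47 at 0.99. The highest library had less than 2 times the lowest for 31 of the 77 members with reads in every library, and more than 5 times for 5.

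Other genes needed to build and run the mitochondrial ribosome were taken from 7 lists. Of 64 such genes tested, 44 had the higher mean log2 level in HFD and 20 in ND, where 52.8% of all genes tested were higher in HFD. The median log2 fold change was 0.38, and 0 passed limma (0% of all genes tested passed). At an unadjusted p under 0.05 there were 4 of 64, all higher in HFD and all without overlap between the diets. Of all genes tested 5.56% were higher at that p and 8.12% higher without overlap, so 4 of 64 (6.25%) is near the first share and below the second. Of these 4 genes 3 were on the list of large subunit assembly. Nsun4, an rRNA methyltransferase, gave 275, 559 and 387 normalized counts in the ND mice and 671, 926 and 874 in the HFD mice (log2 fold change 1.06 ± 0.41, limma adjusted p = 0.581). Mtg2, a GTPase of late assembly, had 60.2, 357 and 223 in ND and 512, 560 and 573 in HFD (1.69 ± 0.69, limma adjusted p = 0.607). Mrm2, which methylates the large rRNA, had 56.7, 59.9 and 14.3 in ND and 151, 108 and 177 in HFD (1.93 ± 0.77, limma adjusted p = 0.592). The fourth was Gabpa, the DNA-binding subunit of GABP, with 631, 284 and 666 in ND and 899, 1098 and 1026 in HFD (1.03 ± 0.43, limma adjusted p = 0.621).

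By role, 12 of 17 genes of large subunit assembly, 6 of 8 of small subunit assembly and 9 of 11 translation factors had higher mean log2 levels in HFD, beside 52.8% of all genes tested. Their median log2 fold changes were 0.49, 0.65 and 0.39. The first was 1.01 without HFD 2, and the other 2 were 0.25 and 0.16 without ND 4. With DESeq2 on the recovered reads 10 of 17, 6 of 8 and 8 of 11 were higher, with medians of 0.32, 0.54 and 0.29. The edgeR counts were the same, with medians of 0.33, 0.56 and 0.32. Some assembly genes had few reads in a library, such as Ddx28 with 1 and Mterf4 with 5 in ND 1, and Mrm1 with 4 in HFD 4. In small subunit assembly the smallest p were those of the GTPase Noa1 (1.37 ± 0.76) and the ribosome-binding factor Rbfa (0.87 ± 0.54). Among translation factors they were those of the elongation factor Tufm (−0.83 ± 0.48), whose HFD values were all below its ND values, and the release factor Mtrf1 (1.18 ± 0.86). The 5 ribosomal proteins with other symbols had a median of 0.30, with Dap3 at 0.34 ± 0.43, Aurkaip1 at 0.34 ± 0.30 and Ptcd3 at −0.64 ± 0.56. Of mRNA handling and membrane insertion, 4 of 7 were higher, with Lrpprc, which stabilizes mitochondrial mRNA, at −0.47 ± 0.91 and the insertase Oxa1l at 0.75 ± 0.58. Taco1, a translational activator, stood at 2.36, 1.07 and 1.19 normalized counts on ND and at 0.971 in HFD 2, against 107 in HFD 4 and 165 in HFD 5. In ND 1, ND 3, ND 4 and HFD 2, 1 read is worth 1.18, 1.07, 1.19 and 0.971 normalized counts. The low Taco1 values thus lie at the counting floor, and HFD 2 was as low as ND.

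Of transcription and replication of mitochondrial DNA, 5 of 8 genes had higher mean log2 levels in HFD, beside 52.8% of all genes tested. The values were 0.36 ± 0.52 for the packaging factor Tfam, −0.97 ± 0.51 for the DNA polymerase Polg and 0.50 ± 0.60 for its accessory subunit Polg2. The RNA polymerase Polrmt had 116, 46.0 and 22.6 on ND and 113, 140 and 0 on HFD, so a library of HFD was at 0. Of the nuclear regulators tested 5 of 8 were higher, with Nrf1 at 0.52 ± 1.06, the coactivator Ppargc1a at −1.35 ± 1.23 and Myc at −2.11 ± 1.38, all with overlap between the diets. Ppargc1b fell under the filter on low values.

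**Figure D5:**
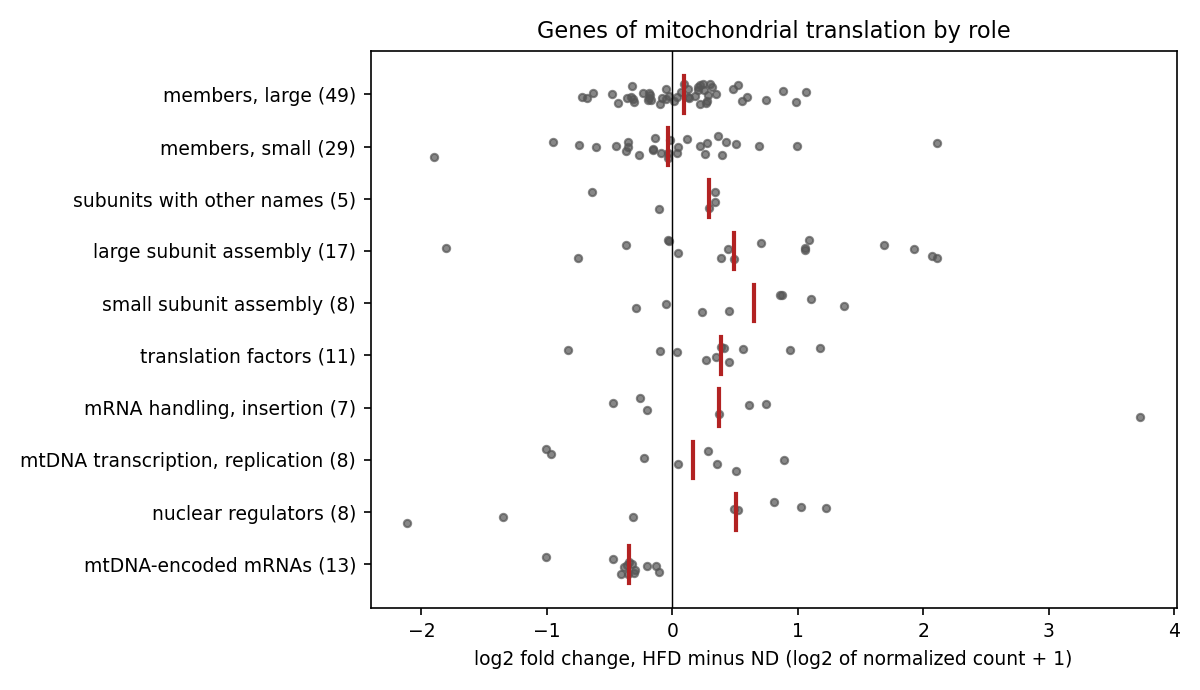
Log2 fold change, HFD minus ND, of the members by subunit and of other genes of mitochondrial translation by role (number of genes tested in brackets). Each point is a gene and each red bar a median, such as 0.10 for the large and −0.03 for the small subunit members, 0.65 for small subunit assembly and −0.35 for mRNAs of mitochondrial DNA.

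The RNAs that this ribosome is built on and reads had lower mean log2 levels in HFD. All 13 mRNAs of mitochondrial DNA had the lower mean log2 level in HFD, where 52.8% of all genes tested had the higher one. Their median log2 fold change was −0.35, and 0 passed limma. The count was 10 of 13 without ND 1 and without HFD 5, where the medians were −0.17 and −0.16. The smallest p were those of mt-Nd1 (−0.41 ± 0.22) and mt-Nd4 (−0.35 ± 0.23), subunits of respiratory complex I. The 13 mRNAs summed to 2.86%, 2.42% and 2.10% of a library in ND and 2.22%, 2.23% and 1.46% in HFD, so the diets overlapped. The rRNA of the large subunit, mt-Rnr2, had −0.38 ± 0.21 and that of the small subunit, mt-Rnr1, −0.32 ± 0.29. Reverse transcription was primed with oligo(dT), per the labels' protocols, which limits how far rRNA and mRNA can be set beside each other, and the nuclear genome holds copies of mitochondrial DNA, so single values are uncertain. Of the 76 proteins of the cytosolic ribosome 70 had lower mean log2 levels in HFD, with a median of −0.39, and their share of a library was 2.59% ± 0.22 in ND and 1.96% ± 0.31 in HFD (SD, n = 3). No test of these groups against the members was made.

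The members lie on 17 chromosomes, with the most, 11, on chromosome 11. Of the 78 genes 18 (23.1%) start within 1000 bases of a protein-coding gene transcribed the other way, where 9.89% of 12672 tested protein-coding genes do. Among these pairs are Mrps12 and Sars2, the seryl-tRNA synthetase of mitochondria, 172 bases apart, Mrps27 and the pentatricopeptide gene Ptcd2, 81 bases apart, and Mrpl49 and Fau, 59 bases apart. Mrpl46 and Mrps11, 1 of each subunit, overlap on opposite strands of chromosome 7. Exons of other genes cover more than 25% of the exonic bases of 7 members and more than 50% of those of 3, namely Mrpl53, Mrps34 and Mrps25. For 10 members another gene has a transcript at least 95% identical over at least 50% of the length, among them Mrpl23, whose pseudogene Mrpl23-ps1 had 70.9 to 113 normalized counts, against 1147 to 2047 for Mrpl23.

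Of 78 members 69 had a promoter window in RefSeq. The motif of NRF1 (GCGCANGCG), a regulator of nuclear genes for mitochondria, was in the windows of 16 of 69 members (23.2%), against 14.9% of 9971 tested protein-coding genes and 7.03% of 27025 genes of all kinds. The ETS letters were in 17.4% of members, 8.98% of tested protein-coding genes and 4.31% of all. The YY1 letters were in 11.6%, 3.46% and 1.64%. TATAAA was in 7.25%, 9.36% and 15.7%. Both strands were searched, and no motif contains another. The 8 members with the YY1 letters had log2 fold changes of −0.31 for Mrpl35, 0.07 for Mrpl36, 1.07 for Mrpl37, −0.31 for Mrpl42, 0.04 for Mrps11, 0.36 for Mrps18a, −0.15 for Mrps24 and 2.11 for Mrps27. These 8 include Mrps27 and Mrpl37, the members of smallest limma p, and no such list is given for the other motifs. Whether any motif goes with the fold change was not tested. A match is a description of letters, not a site or a cause. Yy1 itself averaged 1378 ± 304 normalized counts on ND and 1207 ± 674 on HFD (SD, n = 3).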

How the data were processed

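RNA of 500 plated lung endothelial cells per library was reverse transcribed with oligo(dT) and template switching and sequenced on a NextSeq 550, per the labels' protocols. The submitters' processing notes name the build GRCm38 and, among other tools, HTSeq 0.6.1, TopHat2 2.0.10 and DESeq2, and give no strand setting of the counting. The deposited values are a signal, gene counts that the authors divided by size factors, so the count test planned as an alternative needed recovered reads. Whole reads came out for 100% of values (tolerance 1e-06), with 1 read worth 0.720 to 1.19 normalized counts and 13752860 to 27896648 reads per library. On them edgeR called 0 genes and DESeq2 272. Pairs of libraries, taken within and across the diets together, differed by far more than sampling noise (chi-square per degree of freedom 84.3 to 205), so none was counted as a copy.

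Log2(normalized count + 1) was compared between 3 ND and 3 HFD libraries with limma 3.58.1 (R 4.3.3, trend), over 15655 genes with a mean of at least 10, with Benjamini-Hochberg adjustment and a threshold of 0.05. The alternatives were edgeR 4.0.16 and DESeq2 1.42.0, other scalings, pseudocounts and filters, and each library left out. The fits were tested on simulated data. P-values measure the spread between libraries of a diet, each of a separately numbered mouse, so differences between mice and between preparations cannot be told apart. Nothing in the labels gives a batch. Positions and exon overlap are from GENCODE M21, and promoter windows from RefSeq (GRCm38.p6). The letters searched for NRF1 and YY1 were shortened after a first search with longer forms.

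Members and gene lists were chosen with earlier results of these data known. Named genes were, in each subunit by symbol, the 6 of smallest p, the 3 highest and 3 lowest per kilobase, those at 0 reads in a library and 14 set by role, and in each other list the 2 of smallest p with 8 set genes.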

Additional observations from a re-analysis of the deposited data

How the results depend on the processing

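With limma, 0 genes and 0 members were called in each scaling, pseudocount, filter and left-out library tried, and edgeR called 0 of each. DESeq2 called 272 genes and 1 member, Mrps27 (log2 fold change 2.13, adjusted p = 0.0210, against limma adjusted p = 0.486). Members without overlap between the diets, 2 higher and 2 lower as reported, were 4 higher under TMM scaling, and 4 higher and 7 lower under equal totals and under quantile normalization. As each library was left out they were 3 to 22 higher and 3 to 9 lower, which follows in part from having fewer samples. The large minus small subunit difference of medians ran from −0.0261 (without ND 4) to 0.20 (without HFD 4), and the members' median from −0.10 (without ND 3) to 0.21 (without ND 1). Equal totals moved the median of all genes tested from 0.05 to −0.06 and that of the members from 0.03 to −0.08, with 35 of 78 members higher, against 41 as reported and 33 under quantile normalization. At an unadjusted p under 0.05 members were 2 higher and 0 lower as reported, and 2 and 2 under both of those scalings. For the 12 members of smallest p, 6 in each subunit, 191 of 192 alternative values kept their direction and side of the threshold, the exception being Mrps27 with DESeq2. These 12 were picked by p in the same data, which favours a stable direction. As limma and edgeR called 0 genes in every setting, only DESeq2 could change a side of the threshold. This count is therefore no measure of robustness. Over all 78 members, 37 turned sign without some single library, such as Mrpl35, at −0.31 as reported and 0.31 without ND 1. No paired analysis was possible because the diets share only 1 mouse number, 4, which names different mice. The fewest reads of a member in a library were 37, except for Mrpl53, which had 0 reads in 2 libraries.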
